A study of Homo sapiens with 12 samples.

Results

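The 10 genes described here are the inhibitors of the cyclin-dependent kinases (CDKs) that govern entry into the cell cycle, and the D-type cyclins that those inhibitors oppose. They were taken by gene symbol from a table of 62069 human genes: the 3 CIP/KIP inhibitors CDKN1A (encoding p21CIP1), CDKN1B (p27KIP1) and CDKN1C (p57KIP2), the 4 INK4 inhibitors CDKN2A (p16INK4a and p14ARF), CDKN2B (p15INK4b), CDKN2C (p18INK4c) and CDKN2D (p19INK4d), and the 3 D cyclins CCND1, CCND2 and CCND3. All 10 passed the filter on low counts and are among the 15284 genes tested. The RNA came from the fibroblast line IMR90 ER:RAS, of human lung, whose cells carry a RAS protein fused to the oestrogen receptor, which is switched on by 4-hydroxytamoxifen (4OHT). The 12 libraries form 4 groups of 3. They are cells without 4OHT (Non-induced), cells given 100 nM 4OHT (Induced), and cells given the same dose that express 1 of 2 short hairpin RNAs against the nuclear transport receptor XPO7 (Induced + shXPO7_3 and Induced + shXPO7_5). All groups carry ER:RAS and were at passage 13. The labels give day 5 after 4OHT for every group, the Non-induced cells included, with 7 days in culture and a medium change on day 4. The paper's figure legend calls the control cells vector, while the labels do not say whether they carry one. The replicates bear the letters T, A and C in the Non-induced group and T, A and B elsewhere, and the labels do not say whether they were separate cultures, so each p-value measures the spread between these libraries only.

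A D-type cyclin activates CDK4 or CDK6, which phosphorylate the retinoblastoma protein and thereby release E2F factors for the G1 to S transition. INK4 proteins bind CDK4 and CDK6 and displace the D cyclin. CIP/KIP proteins bind whole cyclin-CDK complexes, chiefly those of CDK2, and can also help a D cyclin and its kinase to assemble. In oncogene-induced senescence (OIS) a fibroblast with an active RAS stops dividing, and p21CIP1 and p16INK4a are the inhibitors most often followed in that state.

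CDKN1A lies on chromosome 6, and CDKN2A and CDKN2B lie next to each other on the minus strand of chromosome 9. RefSeq promoter windows of 300 bases (GRCh38.p14) were matched for 7 of the 10 genes, 12 windows in all. The 4 windows of CDKN1A, CDKN2A and CDKN2B are shown because those inhibitors rose after induction, and because the study asked about TCF3, a factor of the E-protein family that binds E-boxes. CDKN2A has a pair of starts, the upstream start that gives p14ARF (window 1) and the start that gives p16INK4a (window 2). Capitals mark E-boxes (CANNTG, which reads as CANNTG on both strands), each line runs 5′ to 3′ along the gene, and windows are at chr6:36678464-36678763 (plus strand), chr9:21995275-21995574, chr9:21974808-21975107 and chr9:22009256-22009555 (minus strand).
CDKN1A: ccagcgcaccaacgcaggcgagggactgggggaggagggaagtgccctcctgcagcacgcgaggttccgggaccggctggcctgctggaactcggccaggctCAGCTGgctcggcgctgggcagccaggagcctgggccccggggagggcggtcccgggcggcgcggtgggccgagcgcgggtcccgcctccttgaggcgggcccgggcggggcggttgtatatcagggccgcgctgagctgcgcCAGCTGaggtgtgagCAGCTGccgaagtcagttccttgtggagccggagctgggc
CDKN2A window 1: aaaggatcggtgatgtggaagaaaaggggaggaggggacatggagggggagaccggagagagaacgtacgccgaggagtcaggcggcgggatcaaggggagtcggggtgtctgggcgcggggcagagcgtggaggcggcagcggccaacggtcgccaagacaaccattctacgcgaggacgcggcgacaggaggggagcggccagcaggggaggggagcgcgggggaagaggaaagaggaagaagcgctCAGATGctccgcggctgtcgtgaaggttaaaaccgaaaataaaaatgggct
CDKN2A window 2: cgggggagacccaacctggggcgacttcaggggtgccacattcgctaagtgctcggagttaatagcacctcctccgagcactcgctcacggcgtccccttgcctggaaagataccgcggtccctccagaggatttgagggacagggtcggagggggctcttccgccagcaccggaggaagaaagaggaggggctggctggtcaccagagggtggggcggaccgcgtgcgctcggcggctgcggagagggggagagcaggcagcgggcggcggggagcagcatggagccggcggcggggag
CDKN2B: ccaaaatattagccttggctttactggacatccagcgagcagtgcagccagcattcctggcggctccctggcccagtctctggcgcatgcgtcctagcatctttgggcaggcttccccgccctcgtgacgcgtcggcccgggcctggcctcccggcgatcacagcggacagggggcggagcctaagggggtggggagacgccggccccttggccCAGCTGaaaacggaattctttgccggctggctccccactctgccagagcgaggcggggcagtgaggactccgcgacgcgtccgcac

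The CDKN1A window held 3 E-boxes, all CAGCTG, that begin at positions -148, -5 and 11 from the start. CDKN2B held a CAGCTG at -36, window 1 of CDKN2A held a CAGATG at -1, and window 2 of CDKN2A held no match. An E-box is common, since 68.7% of the 35116 promoter windows of the reference hold it. The narrower CAGGTG (read on either strand, so that a match is also an E-box) was in 20.6% of all windows and, among the 12 windows of the members, only in the CCND3 window 1. No member window held TGANTCA, the AP-1 site (7.71% of all windows), or an E2F site written as TTTCCCGC, TTTCGCGC, TTTGCCGC or TTTGGCGC on either strand (3.31%). These matches describe letters in a window and say nothing on binding.

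Libraries held 28534141 to 60397769 counts. All 8 fibroblast markers (COL1A1, COL1A2, COL3A1, VIM, THY1, PDGFRB, DCN and LUM) were over 1 CPM (read count scaled to library size, with TMM factors) in every group, with a summed level of 24016 to 27880 CPM in the Non-induced libraries and 16696 to 21791 CPM in the 9 induced libraries, while PECAM1, CDH5 and CD3E were at 0. Of the other markers, KRT18 was at 29.1 to 46.4 CPM, KRT19 at 1.09 to 36.5 CPM and VWF at 1.70 to 4.17 CPM, and the 4 epithelial markers (EPCAM, CDH1, KRT18 and KRT19) summed to 60.2 to 73.0 CPM in Non-induced and 34.4 to 49.5 CPM in induced libraries. The 3 leukocyte markers (PTPRC, CD68 and CD3E) summed to at most 0.219 CPM. The part of these levels in the results was not tested. XPO7 was at 135 ± 7.04 CPM (SD, n = 3) in Non-induced and 137 ± 8.81 CPM in Induced cells, against 27.7 ± 1.14 CPM with shXPO7_3 and 52.2 ± 1.62 CPM with shXPO7_5. The levels thus go with both hairpin labels. The difference between the hairpins was called (0.92 on the log2 scale; edgeR adjusted p = 0.000387), although not with the compared groups alone (0.91, edgeR adjusted p = 0.114).

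RAS induction changed the inhibitors in opposite directions. CDKN2B showed the largest change of the 10 genes, a 22.3-fold rise, and CDKN1A and CDKN2A rose to 2.29 and 1.97 times the Non-induced mean. CDKN1B, CDKN1C and CDKN2C fell, to 39.4%, 17.7% and 10.7% of it. All 3 D cyclins rose. Of the 10 genes, 9 passed the test (edgeR's quasi-likelihood test, Benjamini-Hochberg adjusted p under 0.05 over all genes tested, termed called below), 6 higher and 3 lower, where 50.9% of all genes tested were called, 24.8% higher and 26.1% lower. The median log2 fold change was 0.44 over the 10 genes and -0.0068 over all genes. All 10 had groups that did not overlap, as did 63.2% of all genes tested. The data come from bulk RNA, in which fewer cells with a transcript and less of that transcript per cell cannot be told apart.

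**Figure D1:**
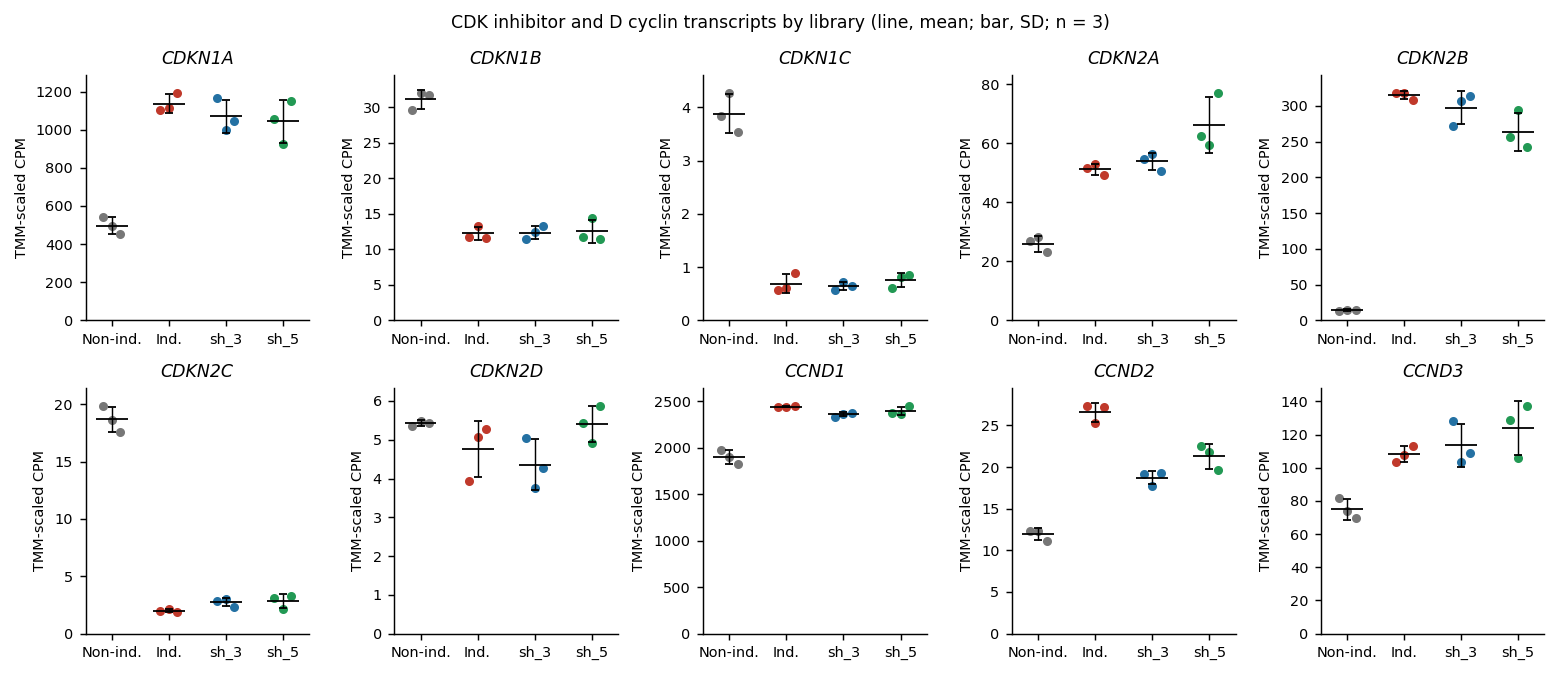
Level of each of the 10 genes (TMM-scaled CPM, linear axes from 0, 1 scale per gene) in the 12 libraries, by group: Non-induced (Non-ind.), Induced (Ind.), Induced + shXPO7_3 (sh_3) and Induced + shXPO7_5 (sh_5). Points are libraries, lines are means and bars are SDs (n = 3); the Induced points of CDKN2B, at 308 to 318 CPM, stand far above the Non-induced points at 12.9 to 14.8 CPM.

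Among the CIP/KIP inhibitors, CDKN1A was by far the most abundant. It was at 543, 496 and 452 CPM in Non-induced replicates T, A and C, and at 1101, 1116 and 1194 CPM in Induced replicates T, A and B. Every Induced library was above every Non-induced library, and the log2 fold change was 1.19 ± 0.094 (SE; edgeR adjusted p = 5.06e-07). CDKN1B, whose protein restrains cyclin E-CDK2 in resting cells, was at 29.6, 32.0 and 31.7 CPM before induction and at 11.8, 13.3 and 11.6 CPM after it. Its log2 fold change was -1.35 ± 0.10 (adjusted p = 3.65e-07 by edgeR). CDKN1C, an imprinted gene of the same family, was rare from the start: 3.83, 4.28 and 3.54 CPM without 4OHT, from 124 to 176 reads a library, and 0.574, 0.603 and 0.888 CPM with it, from 17 to 44 reads. It fell by 2.46 ± 0.19 on the log2 scale (edgeR adjusted p = 3.43e-07). The 3 genes of this family therefore did not move together.

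Divided by exon length, CDKN1A made up 92.8% ± 0.80 (SD, n = 3) of the CIP/KIP level in Non-induced cells and 98.8% ± 0.11 in Induced cells. Exon length is that of all annotated exons of a gene together, which can exceed the length of any single transcript. Shares and orders per length, here and below, therefore depend on the annotation. The share of CDKN1B was 6.34% before and 1.16% after induction, and that of CDKN1C was 0.895% and 0.0732%. The summed family level was 176 ± 14.6 CPM per kb without and 377 ± 16.3 CPM per kb with 4OHT.

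The INK4 inhibitors changed their order. CDKN2B, at 12.9, 14.6 and 14.8 CPM in Non-induced libraries, was at 318, 318 and 308 CPM in Induced libraries. Its log2 fold change was 4.48 ± 0.099 (edgeR adjusted p = 1.60e-11). CDKN2A was at 26.8, 28.2 and 23.0 CPM before and 51.5, 52.9 and 49.2 CPM after induction, a log2 fold change of 0.98 ± 0.11 (edgeR adjusted p = 9.66e-06). The count of CDKN2A does not separate p16INK4a from p14ARF, and 341 of its exon bases (7.88%) are shared with the antisense gene CDKN2B-AS1, which was itself at 0.825 CPM in Non-induced and 0.752 CPM in Induced cells. CDKN2C was at 19.8, 18.6 and 17.6 CPM in Non-induced cells and at only 1.94, 2.16 and 1.90 CPM in Induced cells, a fall by 3.23 ± 0.15 on the log2 scale (edgeR adjusted p = 4.02e-09). CDKN2D was at 5.35, 5.49 and 5.44 CPM without 4OHT and 3.94, 5.07 and 5.27 CPM with it. The 3 Induced libraries lay below the 3 others, but the log2 difference of -0.19 was not called (95% confidence interval -0.48 to 0.10; edgeR adjusted p = 0.265).

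Per length, CDKN2A, CDKN2C, CDKN2D and CDKN2B held 32.0%, 30.1%, 19.3% and 18.6% of the INK4 level in Non-induced cells. In Induced cells CDKN2B held 83.3% ± 0.53, CDKN2A 12.7% ± 0.25, CDKN2D 3.40% ± 0.54 and CDKN2C 0.646% ± 0.037. The share of CDKN2A was thus lower after induction although its level rose. Its exon length of 4329 bases pools the exons of p16INK4a and p14ARF, against 4058 bases for CDKN2B, so its share in each group may be understated. The summed INK4 level was 18.7 ± 0.76 CPM per kb without and 93.2 ± 1.64 CPM per kb with 4OHT.

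**Figure D2:**
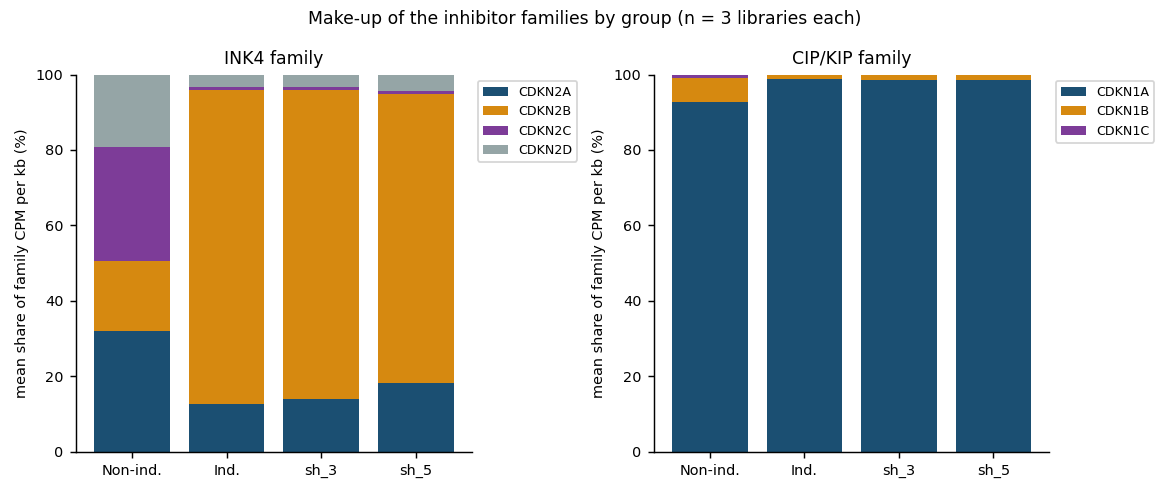
Mean share of each gene in the summed level of its inhibitor family (percent of CPM per kb of exon, n = 3 libraries per group), INK4 on the left and CIP/KIP on the right; groups as Non-ind., Ind., sh_3 and sh_5. CDKN2B grows from 18.6% to 83.3% of the INK4 level on induction, and CDKN1A holds over 92% of the CIP/KIP level in each group.

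The D cyclins rose by less than most of the inhibitors changed. CCND2, the least abundant of them, was at 12.4, 12.3 and 11.2 CPM in Non-induced and 27.3, 25.3 and 27.2 CPM in Induced libraries. Its log2 fold change was 1.15 ± 0.081 (edgeR adjusted p = 1.83e-07). CCND3 was at 81.7, 73.7 and 69.4 CPM and then at 103, 108 and 113 CPM, a log2 fold change of 0.53 ± 0.11 (edgeR adjusted p = 0.00145). CCND1, which dominates in fibroblasts, was at 1977, 1898 and 1824 CPM and then at 2437, 2435 and 2446 CPM, a log2 fold change of 0.36 ± 0.050 (edgeR adjusted p = 6.72e-05). CCND1 made up 96.4% ± 0.13 of the D cyclin level per length in Non-induced and 95.8% ± 0.14 in Induced cells, and CCND2 0.409% ± 0.012 and 0.704% ± 0.029. Of the CCND1 exon bases, 10.3% are also exon of LTO1 on the opposite strand, and whether reads were counted by strand is not given in the sources used here. Of the CCND2 exon bases, 13.8% are shared with AC008012.1 on the same strand, a gene absent from the counts. A further overlap of 1.76% is with CCND2-AS1 on the opposite strand.

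CCND2 gained on both of its relatives. The log2 ratio of CCND2 to CCND1 counts was -7.32, -7.26 and -7.35 in Non-induced and -6.48, -6.59 and -6.49 in Induced libraries, a difference of 0.79. That of CCND2 to CCND3 was -2.72, -2.58 and -2.63 before and -1.92, -2.09 and -2.06 after induction, a difference of 0.62. Neither ratio overlapped between the groups (exact permutation test, two-sided, p = 0.1 for each, the smallest p that 3 against 3 allows). Both use the same CCND2 counts, and the share of other gene pairs without overlap was not computed. The D cyclin ratios are free of library size, but not of the composition of each gene, since CCND2 has 47.0% GC against 55.9% in CCND1 and 59.3% in CCND3. In the fit corrected for GC content and exon length, the log2 fold change was 1.17 for CCND2, 0.52 for CCND1 and 0.68 for CCND3. The uncorrected values were 1.15, 0.36 and 0.53, so CCND2 gained less on both with the correction.

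Per length, the order of the 10 genes in Non-induced cells was CCND1 (393 CPM per kb), CDKN1A (163), CCND3 (12.9), CDKN1B (11.1), CDKN2A (6.0), CDKN2C (5.63), CDKN2D (3.61), CDKN2B (3.48), CCND2 (1.67) and CDKN1C (1.57). Libraries overlapped for 3 pairs of neighbours in that order, CDKN2A with CDKN2C, CDKN2D with CDKN2B and CCND2 with CDKN1C. In Induced cells the order was CCND1 (505 CPM per kb), CDKN1A (373), CDKN2B (77.6), CCND3 (18.6), CDKN2A (11.8), CDKN1B (4.35), CCND2 (3.71), CDKN2D (3.16), CDKN2C (0.603) and CDKN1C (0.278), and no neighbours overlapped. CDKN2B moved from the eighth to the third place and CDKN2C from the sixth to the ninth.

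The genes beside the CDKN2A and CDKN2B pair were examined because both members rose. Within 1 Mb of the CDKN2B start (GRCh38, placed by Ensembl identifier), a window chosen after the members' values were seen, 54 genes of the table have their start, and 11 passed the filter on low counts. Of these 11, which include CDKN2A and CDKN2B themselves, 8 were called higher, 1 was called lower and 2 were not called; without the pair, 6 of 9 were called higher, against 24.8% of all genes tested. MTAP, a methionine salvage enzyme, was at 42.6 CPM in Non-induced and 100.0 CPM in Induced cells, a log2 fold change of 1.23 ± 0.10. DMRTA1, on the other side, was at 0.0955 CPM and 1.45 CPM. The long noncoding RNAs MIR31HG and LINC01239 had log2 fold changes of 1.63 ± 0.083 and 1.92 ± 0.39, and IFNE, an interferon gene, had 2.28 ± 0.41. ENSG00000236921, a noncoding RNA, was at 0.00945 CPM and 0.496 CPM. CDKN2B-AS1 was not called, with a log2 difference of -0.16 (95% confidence interval -0.83 to 0.51), nor was KLHL9, at 87.1 and 91.7 CPM. HACD4, 978 kb away, fell by 2.34 ± 0.21 on the log2 scale. The genes at low level in Non-induced cells could pass the filter only through the induced libraries, so these counts are a description.

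**Figure D3:**
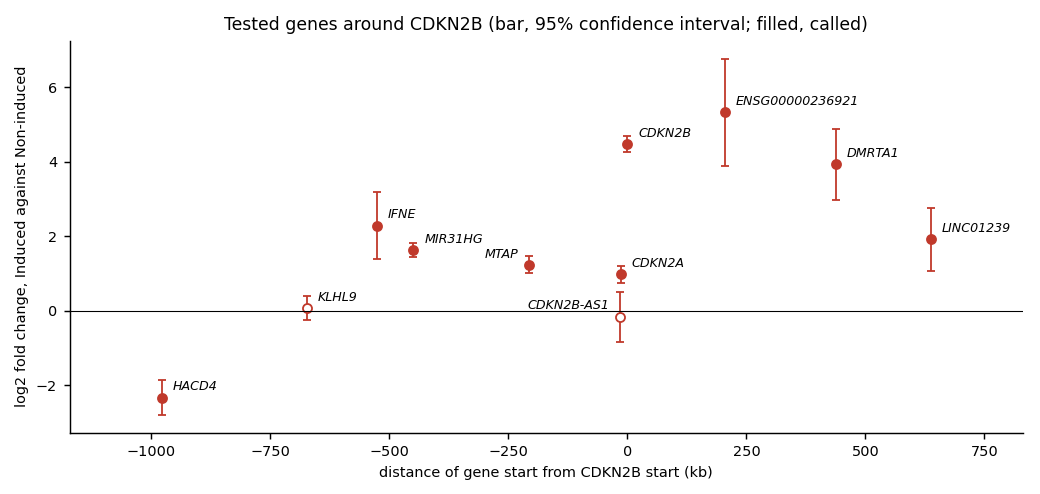
Log2 fold change of Induced against Non-induced cells (vertical, edgeR, with 95% confidence intervals) for the 11 tested genes whose start lies within 1 Mb of the CDKN2B start, by distance of their start from it in kb (horizontal, growing along the reference chromosome). Filled points are called. Of the 11, 8 are called above 0, CDKN2B-AS1 and KLHL9 are open points near 0, and HACD4 is below 0. The 8 include CDKN2A and CDKN2B, and 24.8% of all genes tested were called higher. Genes at low level in Non-induced cells could pass the filter only through the induced libraries.

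Of 58 other genes of the pathway in 5 lists, 36 (62.1%) were called after induction, 14 higher and 22 lower, against 50.9% of all genes, 24.8% higher and 26.1% lower. The lists of turnover genes and of regulators had a smaller share called than all genes. Among 14 G1 kinases, partner cyclins and activators, 13 were called, 5 higher and 8 lower, with a median log2 fold change of -0.53. The kinase CDK1 and the cyclins CCNA2 and CCNE2 fell, with log2 fold changes of -2.67, -2.67 and -2.46. CCNA1, a cyclin at 0.0557 CPM before and 0.387 CPM after induction, had a log2 fold change of 2.75. At its Non-induced level CCNA1 could pass the filter on low counts only through the induced libraries. Its place among the 5 called higher is therefore a description. CDK2, the main target of p21CIP1, rose by 0.56, and CDK7, the kinase that activates other CDKs, by 0.52. CDK4 and CDK6, the partners of the D cyclins, fell, with log2 fold changes of -0.45 and -0.81 (edgeR adjusted p = 0.00238 and 0.00663).

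Among 13 pocket proteins, E2F and DP factors, 9 were called, 3 higher and 6 lower (median log2 fold change -0.28). Of all genes tested, 50.9% were called, 24.8% higher and 26.1% lower. The repressive E2F7 rose from 44.3 to 185 CPM, a log2 fold change of 2.06, E2F6 had 0.56 and E2F3 0.27. E2F2, E2F8 and the pocket protein RBL1 fell, with log2 fold changes of -3.26, -3.07 and -2.04. RB1 itself was at 56.0 CPM before and 49.6 CPM after induction and was not called. Among 9 genes of inhibitor and cyclin turnover, 4 were called (median 0.084), a smaller share than of all genes. GSK3B rose by 0.23, while DTL, SKP2 and FBXO4, which serve ubiquitin ligases, fell, with log2 fold changes of -2.14, -1.12 and -0.98. SKP2 marks p27KIP1 for degradation and DTL marks p21CIP1.

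Among 19 transcriptional regulators of the members, 8 were called, 3 higher and 5 lower (median 0.061). That is a smaller share than the 50.9% of all genes tested. The Polycomb methyltransferase EZH2, known to silence CDKN2A, fell by 1.71 on the log2 scale, from 26.7 to 8.15 CPM, and KDM6B, which removes the mark that EZH2 places, rose by 1.04, from 20.8 to 42.8 CPM. SMAD3, FOXO3 and CBX7 also fell, with log2 fold changes of -0.93, -0.26 and -0.35. ETS2 and ID1, an activator of CDKN2A and an inhibitor of E-proteins, rose by 0.89 and 0.44. TCF3 was at 97.7 CPM before and 84.3 CPM after induction and was not called. Among the 3 neighbours of the locus, MTAP and DMRTA1 were called higher and CDKN2B-AS1 was not called (median 1.23). DMRTA1, at 0.0955 CPM in Non-induced cells, could pass the filter on low counts only through the induced libraries.

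Knockdown of XPO7 in induced cells was compared with the Induced group for each hairpin. Both comparisons share the 3 Induced libraries. With shXPO7_3, 1 of the 10 genes was called, CCND2, which was lower, where 0.124% of all genes tested were called, 0.0916% higher and 0.0327% lower. With shXPO7_5, 0 of the 10 were called by edgeR, where 0.589% of all genes were, 0.478% higher and 0.111% lower. At an unadjusted p under 0.05 there were 2 members with shXPO7_3 and 4 with shXPO7_5, where 6.41% and 21.6% of all genes were. DESeq2 called 1 and 2 members, and 0.643% and 3.63% of all genes it tested. Groups did not overlap for 3 members in each comparison, against 14.6% and 26.8% of all genes tested. The median log2 difference of the 10 genes was -0.066 with shXPO7_3 and 0.073 with shXPO7_5, against -0.0031 and 0.0058 over all genes.

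CCND2 was at 19.1, 17.8 and 19.2 CPM in replicates T, A and B with shXPO7_3 and at 22.5, 21.8 and 19.6 CPM with shXPO7_5, against 27.3, 25.3 and 27.2 CPM in Induced cells. All 6 knockdown libraries lay below all 3 Induced libraries and above all 3 Non-induced libraries. With shXPO7_3 it fell by 0.51 ± 0.080 on the log2 scale, to 70.4% of the Induced mean (edgeR adjusted p = 0.0409). With shXPO7_5 its log2 difference was -0.32 (95% confidence interval -0.50 to -0.15; edgeR adjusted p = 0.0877). The first call was lost when any of the 6 libraries compared was left out (edgeR adjusted p = 0.094 to 0.222), although the value stayed between -0.54 and -0.47, and the second was made by DESeq2 (-0.31, adjusted p = 0.0386) and in the fit corrected for GC content and exon length (-0.28, edgeR adjusted p = 0.0243).

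The other D cyclins were not called with either hairpin in the uncorrected fit of all groups. CCND1 was at 2333, 2367 and 2377 CPM with shXPO7_3 and at 2371, 2361 and 2447 CPM with shXPO7_5, with all 3 shXPO7_3 libraries below the Induced range of 2435 to 2446 CPM. Its log2 differences from Induced cells were -0.048 (95% confidence interval -0.16 to 0.060) and -0.028 (-0.14 to 0.081). CCND3 was at 128, 104 and 109 CPM and at 129, 106 and 137 CPM, with log2 differences of 0.069 (-0.17 to 0.30) and 0.20 (-0.038 to 0.43). With the GC and length correction the shXPO7_5 values were -0.17 ± 0.058 (SE) for CCND1 and 0.0050 ± 0.047 for CCND3, and CCND1 was called with the replicate block added (-0.17, edgeR adjusted p = 0.0498).

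Set against its relatives in the same library, CCND2 was lower with both hairpins in counts not corrected for GC content and exon length. The log2 ratio of CCND2 to CCND1 was -6.93, -7.06 and -6.95 with shXPO7_3 and -6.72, -6.76 and -6.96 with shXPO7_5, differences from the Induced mean of -0.46 and -0.29. The log2 ratio to CCND3 was -2.74, -2.54 and -2.50 with shXPO7_3 and -2.52, -2.28 and -2.81 with shXPO7_5, differences of -0.57 and -0.51. Neither ratio overlapped with the Induced libraries for either hairpin. These 4 ratio comparisons each had p = 0.1 in the exact permutation test, two-sided, the smallest possible (0.1 after adjustment over the 4). They share the 3 Induced libraries and the CCND2 counts, so they are not 4 separate results. How often the ratios of other gene pairs do not overlap was not computed. The ratio of CCND1 to CCND3 overlapped in both, with differences of -0.11 and -0.22 (exact permutation p = 0.5 and 0.2).

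**Figure D4:**
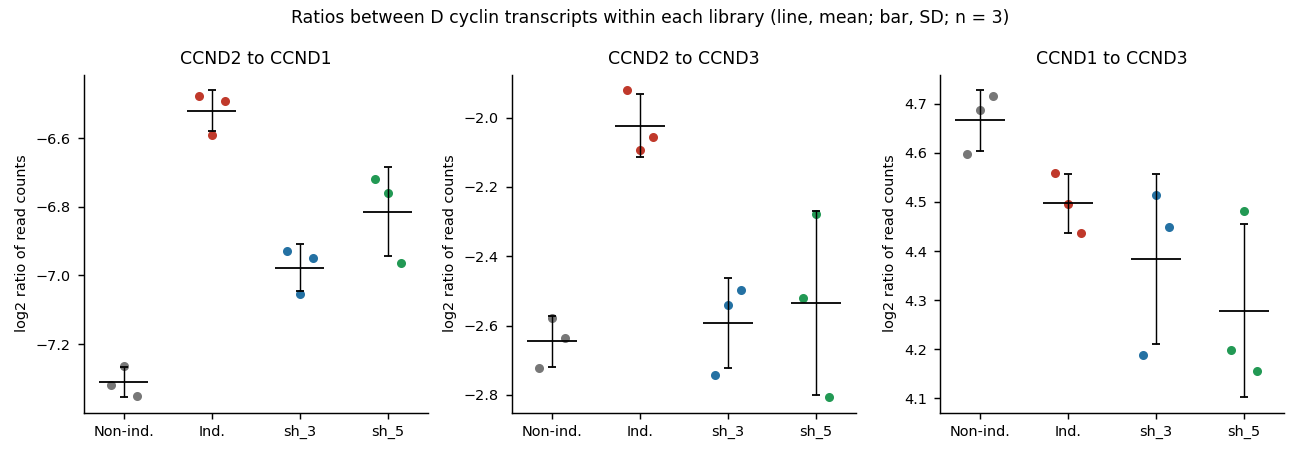
Log2 ratios of read counts between the D cyclins in each of the 12 libraries, CCND2 to CCND1, CCND2 to CCND3 and CCND1 to CCND3, by group (Non-ind., Ind., sh_3, sh_5; points are libraries, lines means, bars SDs, n = 3; each panel has its own vertical axis, not starting at 0). The counts are not corrected for GC content or exon length. In the first 2 panels all 6 knockdown points lie below the 3 Induced points. In the last panel the knockdown and Induced points overlap.

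GC content moved with the libraries. The rank correlation across genes between GC content and the log2 ratio of a library to the Induced mean was 0.61, 0.11 and 0.78 in shXPO7_5 replicates T, A and B, 0.57, -0.34 and -0.25 in shXPO7_3 replicates, and -0.18, -0.20 and 0.31 in Induced replicates. In Non-induced replicates T, A and C it was 0.30, 0.12 and -0.050. These are descriptions across genes of single libraries. With GC content and exon length corrected for, the difference of the CCND2 to CCND1 ratio was -0.43 with shXPO7_3 and -0.11 with shXPO7_5 (exact permutation p = 0.1 and 0.2), and that of the CCND2 to CCND3 ratio was -0.53 and -0.28 (p = 0.1 for each, exact permutation).

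CDKN1A was at 1165, 998 and 1046 CPM with shXPO7_3 and at 1058, 924 and 1148 CPM with shXPO7_5, against 1101 to 1194 CPM in Induced cells. The groups overlapped. The log2 difference was -0.088 with shXPO7_3 (95% confidence interval -0.29 to 0.12) and -0.12 with shXPO7_5 (-0.33 to 0.079; edgeR adjusted p = 0.385). CDKN1A has 58.6% GC, and the GC and length correction moved the latter value to -0.30, which was called (edgeR adjusted p = 0.000629). With shXPO7_3 no alternative called it.

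CDKN2A had differences above 0 where those of CDKN1A were below 0. It was at 54.7, 56.3 and 50.5 CPM with shXPO7_3 and at 62.3, 59.4 and 77.1 CPM with shXPO7_5, against 49.2 to 52.9 CPM in Induced cells. All 3 shXPO7_5 libraries were above all Induced and all shXPO7_3 libraries. The log2 difference from Induced cells was 0.073 (95% confidence interval -0.16 to 0.30) with shXPO7_3 and 0.37 (0.14 to 0.60; edgeR adjusted p = 0.123) with shXPO7_5. DESeq2 called the latter (0.39, adjusted p = 0.0331), and the value was 0.17 after the GC and length correction. The log2 ratio of CDKN1A to CDKN2A counts was 4.42, 4.40 and 4.60 in Induced cells, 4.41, 4.15 and 4.37 with shXPO7_3 and 4.09, 3.96 and 3.89 with shXPO7_5. The shXPO7_5 libraries were below all others of the induced state, a difference from Induced cells of -0.49 (exact permutation p = 0.1, the smallest possible), and the shXPO7_3 libraries overlapped with the Induced libraries, with a difference of -0.16 (exact permutation p = 0.2).

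CDKN2B was at 271, 307 and 314 CPM with shXPO7_3 and at 256, 294 and 242 CPM with shXPO7_5, against 308 to 318 CPM in Induced cells. With shXPO7_5 all 3 libraries were below the Induced group, and the log2 difference was -0.26 (95% confidence interval -0.44 to -0.071; edgeR adjusted p = 0.163). CDKN2C was at 2.83, 3.02 and 2.34 CPM and at 3.07, 2.14 and 3.28 CPM, against 1.90 to 2.16 CPM, with log2 differences of 0.44 (0.098 to 0.79) and 0.51 (0.16 to 0.86), which edgeR did not call (adjusted p = 0.548 and 0.154). Both groups were far below the 17.6 to 19.8 CPM of Non-induced cells. CDKN1B, CDKN1C and CDKN2D overlapped with the Induced group with both hairpins, and their log2 differences ran from -0.13 to 0.18.

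Leaving out shXPO7_5 replicate A raised the members called with that hairpin from 0 to 5, and the share of all genes called from 0.589% to 23.0%, so the rise was not particular to the members. CDKN2A (0.45), CDKN2C (0.68) and CCND3 (0.30) were then called higher and CDKN2B (-0.34) and CCND2 (-0.34) lower (edgeR adjusted p = 0.0248 to 0.0471). That library also has the lowest GC correlation of its group, 0.11, and the part of GC content in these calls was not tested.

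**Figure D5:**
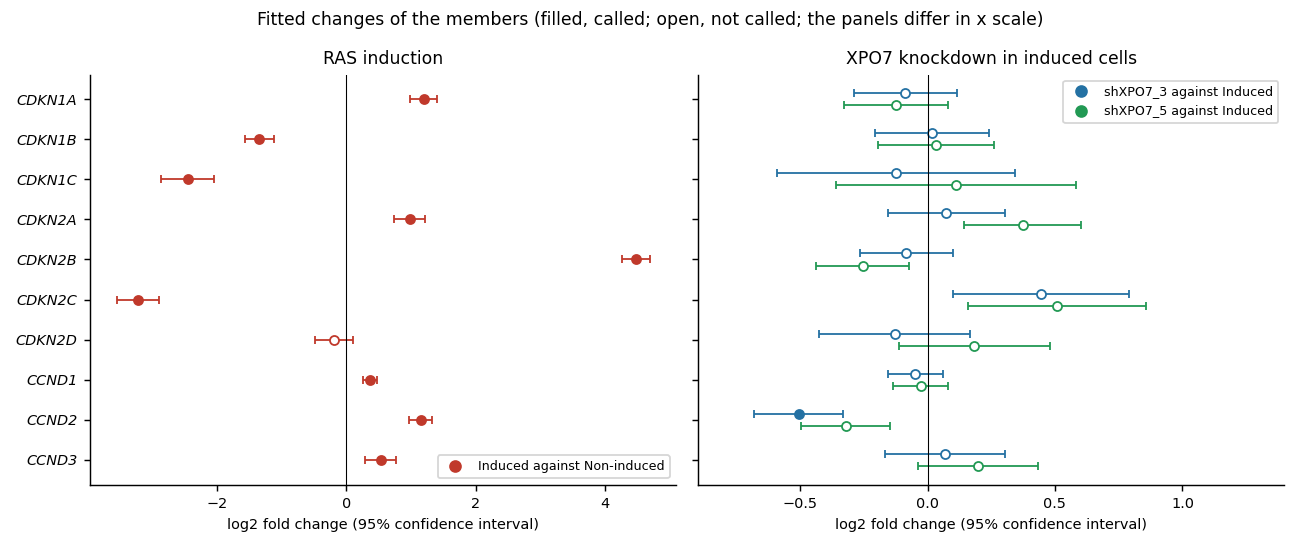
Log2 fold change with 95% confidence interval (edgeR) of the 10 genes: Induced against Non-induced on the left, and each hairpin against Induced on the right, with different horizontal scales. Filled points are called and open points are not; 9 genes are filled on the left, and only CCND2 with shXPO7_3, at -0.51, on the right.

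Between the hairpins, 0 of the 10 genes were called by edgeR (3 at an unadjusted p under 0.05, as were 11.9% of all genes), where 0.0131% of all genes tested were, 0.00654% in each direction. In the uncorrected fit the largest differences of shXPO7_5 against shXPO7_3 were 0.31 for CDKN2D, 0.30 for CDKN2A, 0.24 for CDKN1C and 0.18 for CCND2 on the log2 scale, and 2 members, CDKN2A and CCND2, had groups that did not overlap (9.71% of all genes). With the GC and length correction the largest were -0.23 for CDKN2B, 0.21 for CCND2 and -0.19 for CDKN1A, the last of them called (edgeR adjusted p = 0.0420). XPO7 itself differed by 0.92. Of the 58 pathway genes, 0 were called by edgeR in each of the 3 comparisons among induced groups, with 3 for shXPO7_3, 13 for shXPO7_5 and 11 between the hairpins at an unadjusted p under 0.05 (5.17%, 22.4% and 19.0% of the 58, against 6.41%, 21.6% and 11.9% of all genes). With shXPO7_5, DESeq2 called 1 of them, the fit with the GC and length correction 5, the same with the replicate block 7, and the fit without shXPO7_5 replicate A 16. In the same order, these fits called 3.63%, 3.21%, 6.95% and 23.0% of all genes they tested.

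The genes whose pattern over the 12 libraries was most like that of a member were found by the root mean square difference of log2 CPM, each gene set to its Non-induced mean, among 10528 genes. For CDKN1A they were GLA, the lysosomal alpha-galactosidase (0.072), FKBP1A, a prolyl isomerase (0.091), and AGO2, of the RNA-silencing machinery (0.10), where the median gene was at 0.97. GLA was at 36.9, 81.7, 83.2 and 82.5 CPM in the Non-induced, Induced, shXPO7_3 and shXPO7_5 groups. It was above its Induced mean with both hairpins. CDKN1A was below its own, at 1070 CPM with shXPO7_3 and 1043 CPM with shXPO7_5 against 1137 CPM. For CDKN2A the nearest genes were HPCAL1 (0.079), FJX1 (0.094) and the metallothionein MT2A (0.11), and HPCAL1 was at 36.5, 72.6, 79.3 and 90.1 CPM. For CCND2 they were PHKA1, a phosphorylase kinase subunit (0.12), TNFRSF10B, a death receptor (0.13), and ENTPD1-AS1 (0.13). PHKA1 was at 16.5, 33.2, 26.2 and 26.8 CPM. With both hairpins HPCAL1 and PHKA1 lay on the same side of their Induced means as CDKN2A and CCND2.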

How the data were processed

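The 12 libraries are those of a stranded mRNA kit. The authors deposited read counts per gene, not normalized; the submitters' processing notes list TopHat2 2.0.11, featureCounts 1.18.0 and GRCh37 (hg19), and the strand setting was not given. The 92 spike-in entries sum to 0 and were left out. Symbols, exon lengths and GC content came by Ensembl identifier from the GENCODE annotation (GRCh38), so lengths are of that build and not of the one counted on. Each library held 28534141 to 60397769 counts. Counts were filtered by filterByExpr, scaled by TMM and tested with edgeR 4.0.16 (R 4.3.3) over all 4 groups, with Benjamini-Hochberg adjustment over 15284 genes and a threshold of 0.05; levels are CPM on the TMM-scaled library size. The test was also run on simulated counts with known changes, whose recovery is not reported here. Those counts held no GC-linked difference between libraries, so that run does not bear on how the knockdown calls vary. Alternatives were DESeq2 1.42.0, other scalings and filters, the compared groups alone, a replicate block, a GC and length correction (splines per library) and leaving out each library. The study's methods name gene set enrichment for these data and no test of single genes. D cyclin ratios were log2 count ratios with 0.5 added.

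Named are all 10 members, XPO7, up to 3 called genes of each pathway list in each direction after induction, and the 3 genes nearest in pattern to CDKN1A, CDKN2A and CCND2. CDK4, CDK6, RB1, TCF3, FOXO3, CBX7 and the genes within 1 Mb of CDKN2B are named outside that rule, chosen after their values were seen, as were the ratios CCND1 to CCND3 and CDKN1A to CDKN2A. A called list gene that the rule would name is not reported here. The members and lists were chosen with earlier results of these data known. No 2 libraries of a group agreed within sampling noise (pairs within groups were compared).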

Additional observations from a re-analysis of the deposited data

How the results depend on the processing

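After induction the 9 calls held under each other fit that tested the gene (CDKN1C was removed by a minimum of 1 CPM in 6 libraries), and a minimum fold of 2 left 6 of them, without CDKN2A, CCND1 and CCND3. With upper-quartile scaling, which moved the median of all genes by -0.097 on the log2 scale, 38.3% of the genes called were higher, against 48.8%. The log2 fold change of CCND1 after induction was 0.55 with the replicate block and the GC and length correction, against 0.36. The number of members called with shXPO7_3 was 0 instead of 1 with the compared groups alone (CCND2 adjusted p = 0.083 by edgeR), upper-quartile scaling (adjusted p = 0.101), a minimum fold of 2 and a replicate block, and 0 to 1 without single libraries; leaving out Non-induced A, Non-induced C or shXPO7_5 T, which the comparison does not contain, also ended the call. With shXPO7_5 it was 2 instead of 0 by DESeq2 and with the GC and length correction, 4 with that correction and the replicate block (CDKN1A -0.30, CCND1 -0.17, CCND2 -0.28 and CDKN2B -0.31), and 0 to 5 without single libraries. Between the hairpins it was 1 (CDKN1A, -0.19) with the correction, with or without the block, and 0 without each library. The shares of all genes called moved too. With shXPO7_5 they were 3.63% by DESeq2, 3.21% with the correction and 6.95% with correction and block. Without single libraries they ran from 0.0127% to 23.0%. Between the hairpins the shares were 0.216% with the correction and 0.425% with correction and block. The cause of these changes was not tested.

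Same-letter replicates correlated from -0.16 to 0.56 over 15 pairs, 7 of them above 0.1, so the letters were not taken to pair the libraries. With the replicate block, CCND2 with shXPO7_3 kept its value of -0.51 (edgeR adjusted p = 0.0649), and the number of members called was 9, 0, 0 and 0 in the 4 comparisons. For the CCND2 ratios to CCND1 and CCND3, pairing by letter cannot change the mean difference, since the groups compared hold the same 3 letters. The pairing is therefore no check of those values (exact sign-flip test, p = 0.25, the smallest for 3 pairs).

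Directions that turned were all of differences not called before. With the GC and length correction, without and with the block, shXPO7_5 against shXPO7_3 gave -0.11 and -0.11 for CCND1, -0.038 and -0.039 for CCND3 and -0.047 and -0.043 for CDKN2C, and shXPO7_5 against Induced gave -0.11 and -0.13 for CDKN1C and -0.019 and -0.019 for CDKN2D. Upper-quartile scaling gave 0.024 for CCND1 (shXPO7_5 against Induced), 0.012 for CDKN1A (between hairpins) and -0.077 for XPO7 after induction, which was -0.0070 with the 1 CPM minimum, -0.014 with the block and -0.024 with block and correction. Without single libraries, values crossed 0 for CCND3 with shXPO7_3 (-0.031 to 0.13), CDKN1B with shXPO7_3 (-0.041 to 0.080), shXPO7_5 (-0.076 to 0.098) and between hairpins (-0.094 to 0.083), CDKN1C with shXPO7_3 (-0.25 to 0.13) and shXPO7_5 (-0.010 to 0.37), CDKN1A and CDKN2C between hairpins (-0.10 to 0.046 and -0.054 to 0.23) and XPO7 after induction (-0.011 to 0.078).

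All genes called with shXPO7_3 numbered 19, and 2 with the compared groups alone, 8 with upper-quartile scaling, 30 without the low-count filter, 97 by DESeq2, 379 with the correction, 472 with correction and block and 1 to 24 without single libraries. With shXPO7_5 they numbered 90, and 10 (groups alone), 217 (no filter), 458 (DESeq2), 491 (correction), 149 (block), 1062 (both) and 2 (without Induced T, Induced A or shXPO7_5 T) to 3634 (without shXPO7_5 A). Between hairpins they numbered 2, and 0 (groups alone), 20 (no filter), 28 (DESeq2), 33 (correction), 65 (both) and 1 to 4 (without single libraries). With 3 libraries a group, single-gene permutation tests cannot go below 0.1, and 17 to 44 reads a library lie behind CDKN1C in the Induced group.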
